A study of Mus musculus with 10 samples.

Results

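The 10 genes described are Pou5f1, Utf1, Sall4, Lin28a, Lin28b, Zfp281, Dppa2, Dppa4, Zscan10 and L1td1. They are grouped as genes active in pluripotent cells both before and after naive pluripotency is left. Lin28b was low before that step in these data, with 6 to 23 reads in each library of undifferentiated cells. The 10 genes are a list of symbols among the 31053 genes in the count files. No cut on their values was applied, but the list was drawn up with earlier results of these data known. All 10 passed the filter on low counts, which left 11215 genes for testing. The filter uses a cutoff of about 3.00 CPM (read counts scaled to a common library total). Lin28b reached this in 3 of the 4 libraries of undifferentiated cells and in every library of the other groups. The other genes reached it in every library.

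The cells were E14 mouse embryonic stem (ES) cells, all of them carrying a construct from which doxycycline (DOX) induces Esrrb, a nuclear receptor of the naive network. In the first group, called 2iL, the cells grew in N2B27 medium with CHIR99021 at 3 µM, which inhibits GSK3, PD0325901 at 1 µM, which inhibits MEK, and LIF, a cytokine, but without DOX (4 libraries). The other groups were collected 96 h after CHIR99021, PD0325901 and LIF were taken away, without DOX (3 libraries) or with it (3 libraries). The titles assign each library to experiment 1 or 2. At 96 h experiment 2 has 1 library without DOX and 1 with DOX, so DOX values within experiment 2, and tests of differences between experiments, rest on single libraries. Nothing says that libraries were separate cultures, so the p-values describe the spread between these samples, which may be technical. No group used here combined DOX with 2iL or lacked the construct, so an effect of DOX and one of the construct cannot be told apart.

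Naive ES cells resemble the epiblast of the blastocyst before implantation. When the inhibitors and LIF are withdrawn, the naive factors are shut down and the cells pass through a formative state that resembles the epiblast soon after implantation. That state is still pluripotent, because a second layer of factors around Oct4 (encoded by Pou5f1) stays active until lineages are chosen. The genes described here are counted to this second layer. They encode DNA-binding factors (Pou5f1, Sall4, Zfp281, Zscan10), chromatin proteins (Utf1, Dppa2, Dppa4) and RNA-binding proteins (Lin28a, Lin28b, L1td1).

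The libraries held 1253620 to 4715450 reads in genes (median 3334320). Expression values below are CPM scaled by TMM, a normalisation for library composition. Esrrb, the induced gene, lay at 229 to 378 CPM in 2iL, 13.6 to 32.0 without DOX and 12.8 to 27.0 with DOX, and DOX against no DOX did not pass (log2 fold change -0.32 ± 0.33, edgeR adjusted p = 0.704); the sources used here do not say whether the construct carries the counted 3′ end. Of the 96 h DOX libraries, exp1_2 (the second of experiment 1) stood apart. It had the fewest reads, and 8 fibroblast genes summed to 2102 CPM in it (marker levels here are CPM of library totals, without TMM), against at most 23.9 CPM in any other library. Most of that sum was Col1a2 (1288 CPM) and Col1a1 (595 CPM). Lum did not follow (0.798 CPM in exp1_2, up to 1.44 elsewhere), and Thy1 was at 16.8 CPM, against up to 14.0 elsewhere. Mitochondrial genes took 3.10% of the reads of exp1_2 (0.559% to 1.27% elsewhere) and ribosomal protein genes 7.48% (14.0% to 17.7% elsewhere). Of 5 macrophage markers, Lyz2, Csf1r and Ptprc, each at most 0.424 CPM elsewhere, were at 17.5, 21.5 and 19.1 CPM in it. The others did not follow: Cd68 was at 5.58 CPM in it, below the 8.33 to 29.9 CPM elsewhere, and Adgre1 had no reads in it. Several DOX results are therefore given with and without it. Not all are given both ways, and those given once include this library. In bulk samples such as these, fewer cells that express a gene and less RNA per cell cannot be told apart.

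After 96 h without 2iL and DOX, none of the 10 genes passed as lower. Lin28b, Lin28a, Utf1 and Dppa4 rose, by about 10.8-, 4.89-, 3.27- and 2.17-fold, and the other 6 did not pass the test. The 4 that rose compare with 11.5% of all tested genes that rose and 8.9% that fell in the same comparison (edgeR's quasi-likelihood test, adjusted p below 0.05). The median log2 fold change was 0.28 over the 10 genes and 0.00 over all tested genes. With DOX, compared with no DOX at the same time, 1 of the 10 genes fell (Lin28a) and none rose; over all tested genes 2.16% rose and 0.945% fell. The medians in that comparison were 0.15 for the 10 genes and -0.02 for all tested genes. At an unadjusted p under 0.05, 4 of the 10 genes differed between DOX and no DOX (Lin28a, Lin28b, Utf1 and Dppa2), as did 15% of all tested genes. DOX against 2iL again gave 4 genes that rose (Utf1, Lin28b, Lin28a, Dppa4) and none that fell, beside 9.84% and 6.83% of all tested genes. This last comparison shares its libraries with the other 2 and is not separate evidence.

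**Figure D1:**
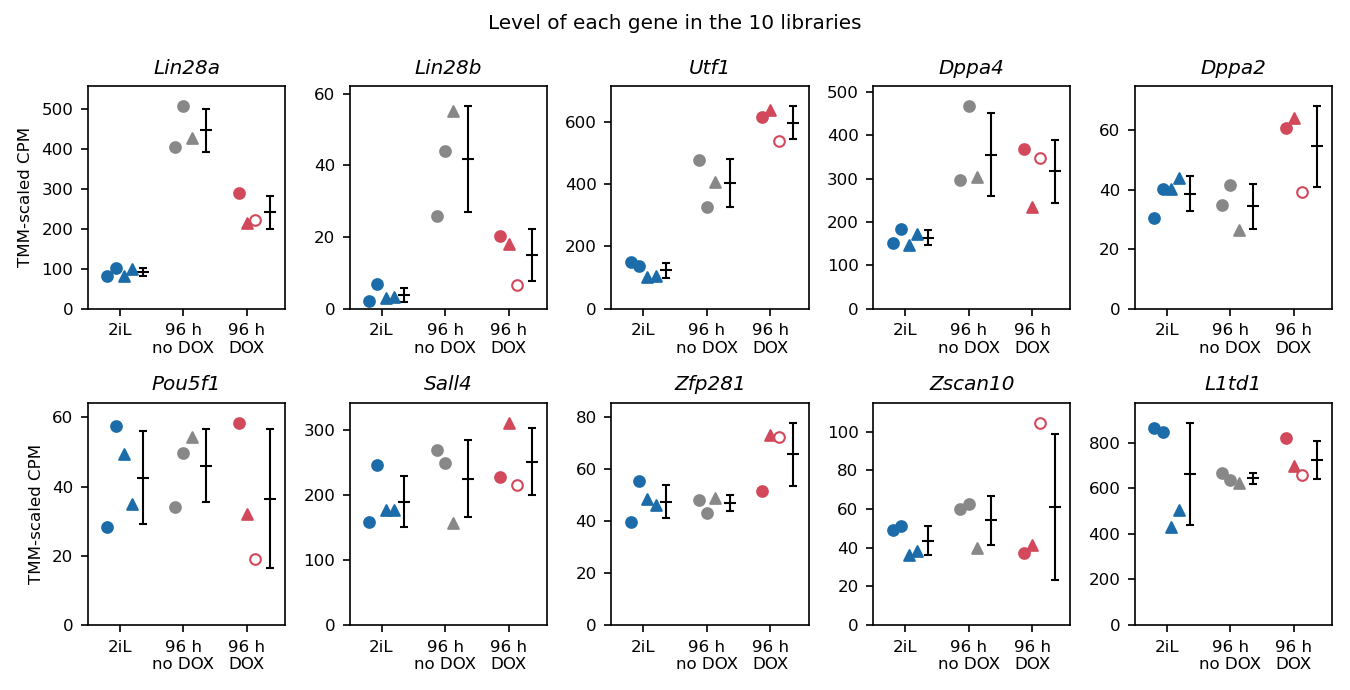
TMM-scaled CPM of each of the 10 genes (vertical axis, its own scale for each gene) in the 10 libraries, by group. Blue marks 2iL, grey 96 h without DOX and red 96 h with DOX; circles are experiment 1, triangles experiment 2, the open circle is 96 h DOX exp1_2, and the black bar is the mean ± SD. Lin28a, Lin28b, Utf1 and Dppa4 show no overlap between 2iL and 96 h without DOX, and the other 6 genes overlap. The share of all tested genes without such overlap was not counted.

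**Figure D2:**
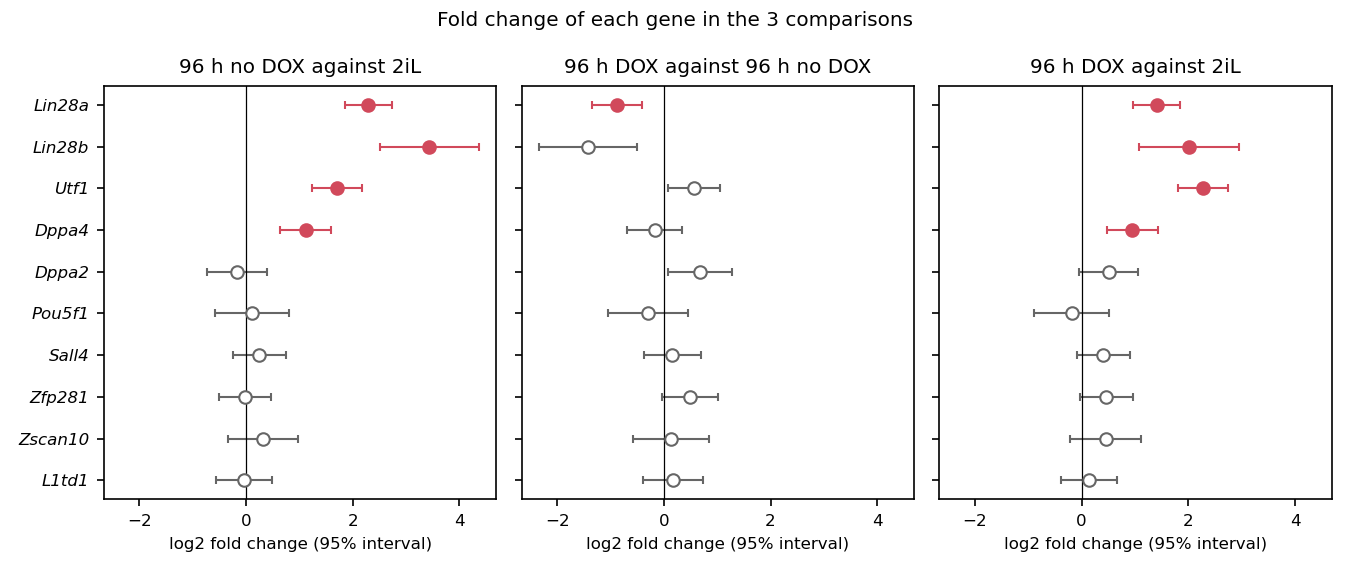
Log2 fold change of each gene in the 3 comparisons, with its 95% interval (edgeR's quasi-likelihood model over all 10 libraries). Filled red points have an adjusted p below 0.05 over all tested genes and open points do not. Filled points lie right of 0 for Lin28a, Lin28b, Utf1 and Dppa4 in both comparisons with 2iL, and left of 0 for Lin28a with DOX against no DOX.

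Lin28a and Lin28b are paralogous RNA-binding proteins that bind the precursors of let-7 microRNAs and block their maturation. Mature let-7 in turn represses mRNAs that carry its seed match in their 3′ untranslated region (3′UTR), Lin28 mRNAs among them. let-7 itself is not read by a library of polyA RNA, so what the data hold is the mRNA side of this loop. The sequences below show the shared let-7 seed and its matches in the members. Mature sequences are from RefSeq (GRCm38.p6), with the seed, bases 2 to 8, in capitals; let-7a, let-7b, let-7c, let-7d, let-7e, let-7f, let-7g, let-7i and miR-98 all have this seed.
mmu-let-7a-5p: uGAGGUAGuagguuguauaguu
mmu-let-7g-5p: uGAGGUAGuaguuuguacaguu
mmu-miR-98-5p: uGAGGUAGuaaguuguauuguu

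The reverse complement of the seed is CTACCTC. It was searched on the sense strand of the longest annotated 3′UTR of each gene (GENCODE vM21, GRCm38). Lin28a holds 2 matches in 2775 bases, Lin28b 4 in 4445 bases and Sall4 1 in 1697 bases; the other 7 members hold none. The matches are shown in capitals with 15 bases before and 1 after, the number being the first base of the match in the 3′UTR.
Lin28a, 909: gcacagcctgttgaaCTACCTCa
Lin28a, 1547: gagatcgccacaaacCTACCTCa
Lin28b, 36: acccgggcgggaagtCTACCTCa
Lin28b, 2410: tatacttgttagtaaCTACCTCt
Lin28b, 2582: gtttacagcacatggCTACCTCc
Lin28b, 3998: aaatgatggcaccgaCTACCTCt
Sall4, 1082: agggctttaatttatCTACCTCa

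A match to these 7 bases is a description of the letters and not a shown site. It occurs in 10.8% of the 10955 tested genes with an annotated 3′UTR, in 12.3% of those with 1000 to 2999 bases and in 25.9% of those with at least 3000 bases. The longer form CTACCTCA, which pairs with the seed and ends in an A, contains CTACCTC and occurs in 3.77%. Both Lin28a matches, the first Lin28b match and the Sall4 match have it.

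Lin28a (ENSMUSG00000050966, GRCm38 chromosome 4, 134003330 to 134018841, minus strand) was measured at 81.6, 101, 82.0 and 100 CPM in the 2iL libraries. At 96 h without DOX it was 405, 507 and 427 CPM, and with DOX 289, 214 and 221 CPM. The 3 groups do not overlap: the highest 2iL library is below the lowest DOX library, and the highest DOX library is below the lowest library without DOX. Here and below, the share of all tested genes whose groups do not overlap was not counted. The Lin28a means were 91.2 ± 10.8 (SD, n = 4), 446 ± 53.8 (n = 3) and 241 ± 41.4 CPM (n = 3). Loss of 2iL raised Lin28a by 2.29 ± 0.21 on the log2 scale (SE; edgeR adjusted p = 1.44e-07); experiment 1 alone gave 2.32 and experiment 2 alone 2.23. With DOX it was 0.89 ± 0.22 log2 units lower than without (log2 fold change -0.89, edgeR adjusted p = 0.0327), with -0.84 within experiment 1; within experiment 2 it fell by 1.00. Against 2iL, the DOX libraries were still higher by 1.40 ± 0.21 (edgeR adjusted p = 7.84e-05). Leaving out 96 h DOX exp1_2 left the DOX value at -0.83 (edgeR adjusted p = 0.0451). The DOX call is close to its threshold: it was lost in 9 of 21 alternatives, among them leaving out 96 h DOX exp2_1 (-0.79, edgeR adjusted p = 0.124) any 1 of the libraries without DOX (edgeR adjusted p 0.0814 to 0.107), or 2iL exp2_1 or exp2_2 (0.0598 and 0.0583).

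Lin28b (ENSMUSG00000063804, chromosome 10, 45376620 to 45486395, minus strand) started from very few reads. The 2iL libraries held 6, 23, 10 and 9 reads of it, or 2.00, 6.73, 3.07 and 3.33 CPM. Without DOX it was 25.8, 44.0 and 55.2 CPM, and with DOX 20.2, 18.1 and 6.63 CPM. Each library without DOX is above each DOX library, and the lowest DOX library, exp1_2 with 9 reads, lies just under the highest 2iL library. The rise on loss of 2iL was 3.43 ± 0.44 on the log2 scale (edgeR adjusted p = 8.38e-06), a fold change of 10.8 with a 95% interval from 5.70 to 20.5. Within experiments 1 and 2 it was 2.97 and 4.10. With DOX against no DOX the log2 fold change was -1.42 ± 0.44 and did not pass (edgeR adjusted p = 0.0904); without 96 h DOX exp1_2 it was -1.12 (edgeR adjusted p = 0.246). It passed with DESeq2 (-1.43, adjusted p = 0.0463) and with no filter beyond 1 read (-1.43, edgeR adjusted p = 0.0199). Against 2iL the DOX libraries were higher by 2.02 ± 0.45 (edgeR adjusted p = 0.00356), and by 2.31 without exp1_2.

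The number of Lin28a reads for each Lin28b read was 15.0 to 40.8 in 2iL, 7.73 to 15.7 without DOX and 11.8 to 33.3 with DOX. The difference in the log2 ratio between 96 h without DOX and 2iL was -1.25, with an exact two-sided permutation p of 0.114 (n = 4 and 3, smallest possible 0.0571). Adjusted over the 4 ratio tests made here it was 0.229. With 4 against 3 libraries this test cannot reach the threshold used for calls, whatever the ratios. It therefore cannot decide whether the balance between the paralogs changed. The ratios of 2iL and no DOX overlapped, with 15.0 the lowest in 2iL and 15.7 the highest without DOX.

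**Figure D3:**
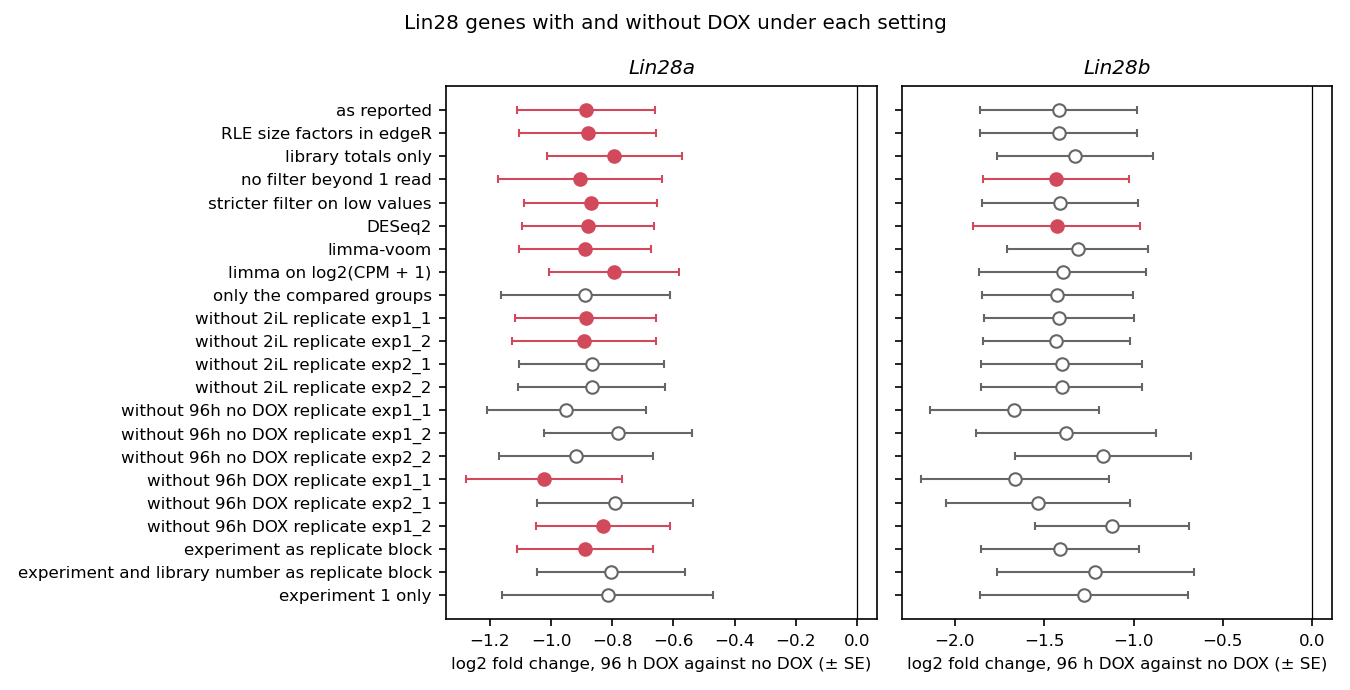
Log2 fold change (horizontal axis, ± SE) of Lin28a and Lin28b at 96 h with DOX against no DOX, as reported and under 21 other settings (vertical axis). Red filled points have an adjusted p below 0.05. All points of both genes lie below 0; the Lin28a value ranges from -1.02 to -0.78 and the Lin28b value from -1.67 to -1.12, while the call changes with the setting.

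Around the Lin28 genes, 15 genes of the let-7 pathway were examined: the microRNA processing enzymes, the uridylating and degrading enzymes that Lin28a recruits or that act after it, and classic let-7 targets. On loss of 2iL, 1 of the 15 rose and 1 fell, and the median was 0.22. Nr6a1, an orphan nuclear receptor with 8 matches to CTACCTC in its 3′UTR, rose from 39.1 ± 6.17 to 180 ± 28.0 CPM (log2 fold change 2.21 ± 0.23, edgeR adjusted p = 7.22e-07). Its level with DOX was 97.4 ± 22.5 CPM, and the log2 fold change against no DOX of -0.88 ± 0.25 did not pass (edgeR adjusted p = 0.0565). It passed with DESeq2 (-0.87, adjusted p = 0.0162) and with no filter beyond 1 read (-0.89, edgeR adjusted p = 0.0403). Hmga2, a chromatin protein and classic let-7 target with 4 matches, moved the other way. It fell from 46.5 ± 10.7 to 11.7 ± 4.47 CPM (log2 fold change -1.99 ± 0.33) and was 32.2 ± 9.20 CPM with DOX, a rise of 1.44 ± 0.35 over no DOX (edgeR adjusted p = 0.0258). Igf2bp2, an mRNA-binding protein, was the gene that fell with DOX, from 163 ± 42.8 to 74.2 ± 13.0 CPM (-1.13 ± 0.27, edgeR adjusted p = 0.0247). Both DOX calls are lost without 96 h DOX exp1_2 (Hmga2 1.22, adjusted p = 0.0821; Igf2bp2 -1.03, adjusted p = 0.0541). They are also lost without DOX exp2_1 (1.47 and -1.07), no-DOX exp1_1 (1.25 and -1.15) or no-DOX exp1_2 (1.34 and -0.91). Igf2bp1 and Trim71, with 4 matches each, had log2 fold changes of 0.35 and 0.22 on loss of 2iL and did not pass.

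Over all tested genes with an annotated 3′UTR, 11.6% rose and 8.85% fell on loss of 2iL. Of the 1182 with CTACCTC, 14.5% rose and 9.22% fell (median log2 fold change 0.04), and of the 413 with CTACCTCA, 15.7% rose and 7.99% fell (median 0.10). For DOX against no DOX, 1.52% of the genes with CTACCTC rose and 1.69% fell, beside 2.15% and 0.949% of all with a 3′UTR. These shares are descriptions, since genes with a match also have longer 3′UTRs.

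L1td1 (ENSMUSG00000087166, chromosome 4, 98726734 to 98738480), an RNA-binding protein descended from a LINE-1 element and a partner of Lin28a in ES cells, did not pass in any comparison. The 2iL libraries fell apart by experiment: 865 and 845 CPM in experiment 1, and 431 and 506 CPM in experiment 2. Without DOX it was 667, 637 and 623 CPM, between those pairs, and with DOX 819, 695 and 659 CPM. The log2 fold change on loss of 2iL was -0.04 ± 0.25 (edgeR adjusted p = 0.938), made of -0.39 within experiment 1 and 0.41 within experiment 2; the test of that difference between experiments gave an adjusted p of 0.727. With DOX against no DOX it was 0.17 ± 0.27.

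Utf1 (ENSMUSG00000047751, chromosome 7, 139943789 to 139945112) encodes a chromatin-bound protein restricted to pluripotent cells and the germ line, and it acts at promoters that carry both activating and repressive histone marks. It stood at 150, 138, 100 and 105 CPM in 2iL. Without DOX it was 479, 327 and 406 CPM, and with DOX 616, 640 and 539 CPM. All 3 groups were separate, and Utf1 was the gene of the 10 whose order ran 2iL, no DOX, DOX without overlap. The share of all tested genes with this order was not counted. The rise on loss of 2iL was 1.71 ± 0.22 on the log2 scale (edgeR adjusted p = 9.37e-06), with 1.48 and 1.98 within the experiments. The DOX libraries were 2.28 ± 0.23 above 2iL (edgeR adjusted p = 6.21e-07). DOX against no DOX gave 0.57 ± 0.24, which did not pass (edgeR adjusted p = 0.247; 0.63 without 96 h DOX exp1_2). The 95% interval ran from 0.07 to 1.06 and the call was gained in none of 21 alternatives.

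Dppa2 and Dppa4 encode partner proteins with a SAP domain that bind each other, occupy bivalent promoters and can switch on genes of the 2-cell embryo. They are neighbours on chromosome 16 (Dppa4, ENSMUSG00000058550, 48283733 to 48294237; Dppa2, ENSMUSG00000072419, 48303908 to 48319723), on the same strand, 9670 bases apart with no annotated gene between. On loss of 2iL, Dppa4 passed the test and Dppa2 did not; the ratio of the pair, which bears on the difference itself, is given after both. Dppa4 was 152, 183, 147 and 173 CPM in 2iL, 297, 468 and 303 CPM without DOX, and 369, 234 and 347 CPM with DOX. Every 96 h library was above every 2iL library, and the 96 h groups overlapped. Dppa4 rose by 1.12 ± 0.23 on the log2 scale (edgeR adjusted p = 0.00123; 1.19 and 0.92 within the experiments) and did not pass with DOX against no DOX (-0.17 ± 0.25, edgeR adjusted p = 0.805). DOX against 2iL gave 0.95 ± 0.23 (edgeR adjusted p = 0.00651).

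Dppa2 was 30.3, 40.1, 40.2 and 44.0 CPM in 2iL, 34.9, 41.6 and 26.4 CPM without DOX, and 60.6, 63.9 and 39.0 CPM with DOX. The first groups overlapped widely, and the lowest DOX library was 96 h DOX exp1_2. On loss of 2iL the log2 fold change was -0.17 ± 0.27 (95% interval -0.73 to 0.39), so the interval leaves out a rise of the size seen in Dppa4. DOX against no DOX gave 0.68 ± 0.29 (edgeR adjusted p = 0.252), and 0.85 without exp1_2 (edgeR adjusted p = 0.144). Reads of Dppa4 per read of Dppa2 were 3.66 to 5.01 in 2iL, 8.49 to 11.5 without DOX and 3.67 to 8.89 with DOX. The ratios of 2iL and no DOX did not overlap, and the exact two-sided permutation p was 0.0571, the smallest that 4 against 3 libraries can give (0.229 adjusted over the 4 ratio tests). For DOX against no DOX it was 0.2 (smallest possible 0.1, adjusted 0.267). With so few libraries neither test can reach the threshold used for calls, so neither decides whether the ratio changed.

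Genes of the 2-cell stage that lie downstream of Dppa2 and Dppa4 were almost silent, and none of the 9 listed passed the filter; 8 of them were in the count files. They held 12 reads in all 4 libraries of 2iL, 2 in the 3 libraries without DOX and 76 in the 3 with DOX. By DOX library this was 15, 50 and 11 reads (3.60, 16.6 and 8.77 CPM of library totals in exp1_1, exp2_1 and exp1_2), and the highest of the other 7 libraries had 7 reads (2.12 CPM). Most of the reads with DOX came from Zscan4d (29), Zfp352 (21) and Zscan4c (19), named here after their values were seen. The Zscan4 genes are near-identical copies, so reads could be split between them or lost. No test was made on these low counts.

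The promoters of Utf1 and Lin28a are shown because both genes rose on loss of 2iL and then differed in direction with DOX (0.57 for Utf1, not passed, and -0.89 for Lin28a). Each sequence runs from 250 bases before to 50 after the RefSeq start (GRCm38.p6), in the direction of transcription, with each GC box (GGGCGG, or CCGCCC on the other strand) in capitals; the first GC boxes of Utf1 overlap by 1 base.
Utf1, chr7:139943606-139943905, plus strand: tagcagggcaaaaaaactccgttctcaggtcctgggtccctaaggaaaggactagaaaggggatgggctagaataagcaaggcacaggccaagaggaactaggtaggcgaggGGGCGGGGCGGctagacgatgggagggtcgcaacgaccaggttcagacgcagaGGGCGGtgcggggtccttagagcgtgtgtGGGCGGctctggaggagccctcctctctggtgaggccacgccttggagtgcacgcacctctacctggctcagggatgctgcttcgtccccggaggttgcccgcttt
Lin28a, chr4:134018767-134019066, minus strand: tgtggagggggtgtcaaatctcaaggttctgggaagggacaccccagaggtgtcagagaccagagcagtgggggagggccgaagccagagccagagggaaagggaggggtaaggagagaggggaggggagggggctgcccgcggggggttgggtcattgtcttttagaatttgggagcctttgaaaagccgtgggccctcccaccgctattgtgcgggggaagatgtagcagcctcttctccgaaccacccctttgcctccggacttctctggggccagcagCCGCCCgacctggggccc

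Utf1 holds 4 GC boxes and 17 CpG dinucleotides there, and Lin28a 1 GC box and 10 CpG. RefSeq entries were matched for 7 of the 10 members (Sall4, Dppa2 and Dppa4 had none). Of 27025 promoters of this length, 35.9% hold a GC box and the median is 7 CpG. The same windows were searched on both strands for the Esrrb motif TCAAGGTCA (0.407% of all promoters), its core AAGGTCA (4.66%), the octamer ATGCAAAT read by Oct4 (1.75%) and the Sox core ACAAAG (18.7%). AAGGTCA is contained in TCAAGGTCA. None of these 4 motifs was found in the windows of the 7 members. The Lin28b window (chr10:45470152-45470451) lies inside the gene as placed by GENCODE (45376620 to 45486395, minus strand). The stretch before the outermost annotated start of Lin28b was therefore not searched.

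Pou5f1 (ENSMUSG00000024406, chromosome 17, 35506018 to 35510772), which encodes the POU factor Oct4 at the centre of the network, showed no change that passed the test. It was 28.3, 57.6, 49.4 and 35.1 CPM in 2iL, 34.1, 49.8 and 54.4 CPM without DOX, and 58.5, 32.0 and 19.2 CPM with DOX. The 3 groups overlap, and the lowest value, 26 reads, is in 96 h DOX exp1_2. On loss of 2iL the log2 fold change was 0.11 ± 0.33 (edgeR adjusted p = 0.870; 95% interval as a fold, 0.669 to 1.74). With DOX against no DOX it was -0.30 ± 0.36, and -0.02 without exp1_2. Counting of Pou5f1 is uncertain: in its last 300 bases, 2 other annotated genes carry stretches of at least 50 bases with 95% identity or more (Gm5712, a processed pseudogene, and Gm19553, an overlapping antisense gene). Entries with several alignments, 56.4% to 62.4% of the counted total of each library, were assigned to no gene. Reads of Pou5f1 that also fit Gm5712 elsewhere in the genome would thus be missing from its values. Gm19553 lies over Pou5f1 itself, and whether reads there were told apart depends on a strand setting that no source here states.

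Sox2 and Nanog, which act with Oct4 in the core network, fell on loss of 2iL. Sox2 went from 272, 406, 312 and 364 CPM in 2iL to 158, 220 and 128 CPM without DOX, and was 301, 255 and 354 CPM with DOX. No library without DOX reached the lowest of the other groups. Sox2 fell by 1.00 ± 0.24 on the log2 scale (edgeR adjusted p = 0.00429), and with DOX against no DOX its 0.84 ± 0.25 did not pass (edgeR adjusted p = 0.0776). The DOX value passed in 4 of 21 alternatives: library totals only (0.94, edgeR adjusted p = 0.0395), DESeq2 (0.85, adjusted p = 0.0239), limma on log2(CPM + 1) (0.96, adjusted p = 0.0293) and without no-DOX exp1_2 (1.08, edgeR adjusted p = 0.0350). Without 96 h DOX exp1_2 it was 0.72 (edgeR adjusted p = 0.142). Nanog, a naive factor as well, fell from 188 to 241 CPM in 2iL to 14.0 to 22.3 CPM without DOX (log2 fold change -3.59 ± 0.31, edgeR adjusted p = 7.47e-08) and was 20.9 to 51.6 CPM with DOX.

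Of the 8 POU family relatives of Pou5f1, 4 were tested. Pou3f1 (Oct6), a formative factor, rose from 8.06 ± 2.09 to 250 ± 85.2 CPM (log2 fold change 4.95 ± 0.36, edgeR adjusted p = 7.05e-09), and the other 3 did not pass. None passed with DOX; Pou3f1 was at 160 ± 83.0 CPM.

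Sall4 (ENSMUSG00000027547, chromosome 2, 168748332 to 168767943, minus strand), a zinc finger factor that binds AT-rich DNA and recruits the NuRD repressor complex, was 158, 246, 177 and 177 CPM in 2iL. Without DOX it was 270, 249 and 157 CPM, and with DOX 228, 311 and 215 CPM. The groups overlap throughout. Its log2 fold change was 0.25 ± 0.24 on loss of 2iL and 0.16 ± 0.26 with DOX (edgeR adjusted p = 0.543 and 0.828). Within experiment 1 the DOX value was -0.23 and within experiment 2 it was 0.98; the difference had an unadjusted p of 0.0291 and an adjusted p of 0.889, and the experiment 2 value compares 1 library with 1. In this test of differences between experiments, 0.00892% of all tested genes passed for loss of 2iL and 0% (0 genes) for DOX against no DOX, and none of the 10 genes did.

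Zfp281 (ENSMUSG00000041483, chromosome 1, 136624901 to 136630053) is a zinc finger factor that helps cells leave the naive state and acts with NuRD on Nanog. Its fitted change on loss of 2iL was the smallest of the 10, though within the SE of that of L1td1 (-0.04 ± 0.25). Zfp281 was 39.6, 55.3, 48.2 and 46.2 CPM in 2iL, 48.2, 43.1 and 48.8 CPM without DOX, and 51.6, 72.8 and 72.2 CPM with DOX. Every DOX library was above every library without DOX. The log2 fold changes were -0.02 ± 0.24 on loss of 2iL (95% interval -0.51 to 0.47) and 0.48 ± 0.25 with DOX (edgeR adjusted p = 0.383), so the DOX difference did not pass. Without 96 h DOX exp1_2 it was 0.41.

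Zscan10 (ENSMUSG00000023902, chromosome 17, 23600856 to 23611019), a SCAN-domain zinc finger factor of ES cells, was 49.0, 51.2, 36.2 and 38.1 CPM in 2iL, 60.2, 62.5 and 39.7 CPM without DOX, and 37.3, 41.2 and 105 CPM with DOX. Its highest value is 96 h DOX exp1_2. The log2 fold change with DOX against no DOX was 0.14 ± 0.34, and without that library it was -0.47 (edgeR adjusted p = 0.581), so the sign rests on 1 library. On loss of 2iL it was 0.31 ± 0.32 (edgeR adjusted p = 0.568).

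For the 6 genes that did not pass on loss of 2iL, the test does not show that they stayed the same. Its intervals give a range for each change, based on the spread between these samples, which may be technical. The Pou5f1 interval does not cover reads that its counting may miss. That of L1td1 pools experiments of opposite sign (-0.39 and 0.41). The lower ends of the 95% intervals, as folds of the 2iL level, were 0.605 (Dppa2), 0.669 (Pou5f1), 0.675 (L1td1), 0.700 (Zfp281), 0.787 (Zscan10) and 0.843 (Sall4). For comparison, Nanog was at 0.0833 and Sox2 at 0.499 of the 2iL level. The upper ends were between 1.31 (Dppa2) and 1.96 (Zscan10).

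Around Sall4 and Zfp281, 14 subunits of NuRD and 8 relatives and partners were examined. Of the NuRD subunits, Cdk2ap1 rose on loss of 2iL, from 16.1 ± 4.14 to 44.4 ± 15.0 CPM (log2 fold change 1.46 ± 0.31, edgeR adjusted p = 0.00184), and the other 13 did not pass; with DOX none of the 14 passed. Of the relatives and partners, 4 of 8 rose on loss of 2iL and none fell (median 0.57). Sall2, a paralog of Sall4, rose from 6.78 ± 1.06 to 47.5 ± 24.8 CPM (2.81 ± 0.42), and Zic2, a zinc finger factor of the post-implantation epiblast and neural tissue, from 5.94 ± 2.62 to 33.4 ± 11.5 CPM (2.49 ± 0.43). Sall1 and the histone methyltransferase gene Ehmt1 were the others. DOX against no DOX changed a pair of them. Tet1, a DNA demethylating enzyme and partner of Zfp281, rose from 96.4 ± 31.2 to 291 ± 184 CPM (1.58 ± 0.35, edgeR adjusted p = 0.0120). The paralog Sall3 fell from 28.5 ± 10.7 to 9.54 ± 4.66 CPM (log2 fold change -1.51 ± 0.40, edgeR adjusted p = 0.0427). Without 96 h DOX exp1_2 neither call held (Tet1 0.94, adjusted p = 0.0592; Sall3 -1.28, adjusted p = 0.118). The Tet1 call is also lost without no-DOX exp1_1 (1.40) or exp2_2 (1.51), and the Sall3 call without 2iL exp1_2, exp2_1 or exp2_2, no-DOX exp1_1 or exp2_2, or DOX exp1_1 (-1.53 to -1.20).

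Other genes counted to general pluripotency did not share a direction. Of 21 tested, 5 rose and 8 fell on loss of 2iL (median -0.33). Podxl, a sialomucin of the cell surface, rose from 21.8 ± 8.52 to 151 ± 59.0 CPM, and Epcam, an epithelial adhesion molecule, from 27.5 ± 9.47 to 160 ± 9.05 CPM. Dppa5a, an RNA-binding protein of ES cells, fell from 249 ± 86.3 to 34.4 ± 15.8 CPM, and Alpl, the alkaline phosphatase used to stain ES cells, from 237 ± 73.5 to 33.0 ± 12.2 CPM. In the DOX comparison 3 rose, Dppa5a and Tdgf1 among them, and 2 fell (Podxl and Cdh1). Tdgf1, the Nodal co-receptor Cripto, went from 24.4 ± 6.28 to 138 ± 49.7 CPM (log2 fold change 2.50 ± 0.29, edgeR adjusted p = 3.26e-05), and Dppa5a from 34.4 ± 15.8 to 195 ± 122 CPM (2.51 ± 0.41, edgeR adjusted p = 0.000991). The fall of Podxl is lost without no-DOX exp1_1 (-1.58) or exp2_2 (-1.34), and that of Cdh1 without 2iL exp2_1 or exp2_2, or no-DOX exp1_1 or exp2_2 (-1.49 to -1.12). Among the 10 members no gene had a DOX rise that passed.

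**Figure D4:**
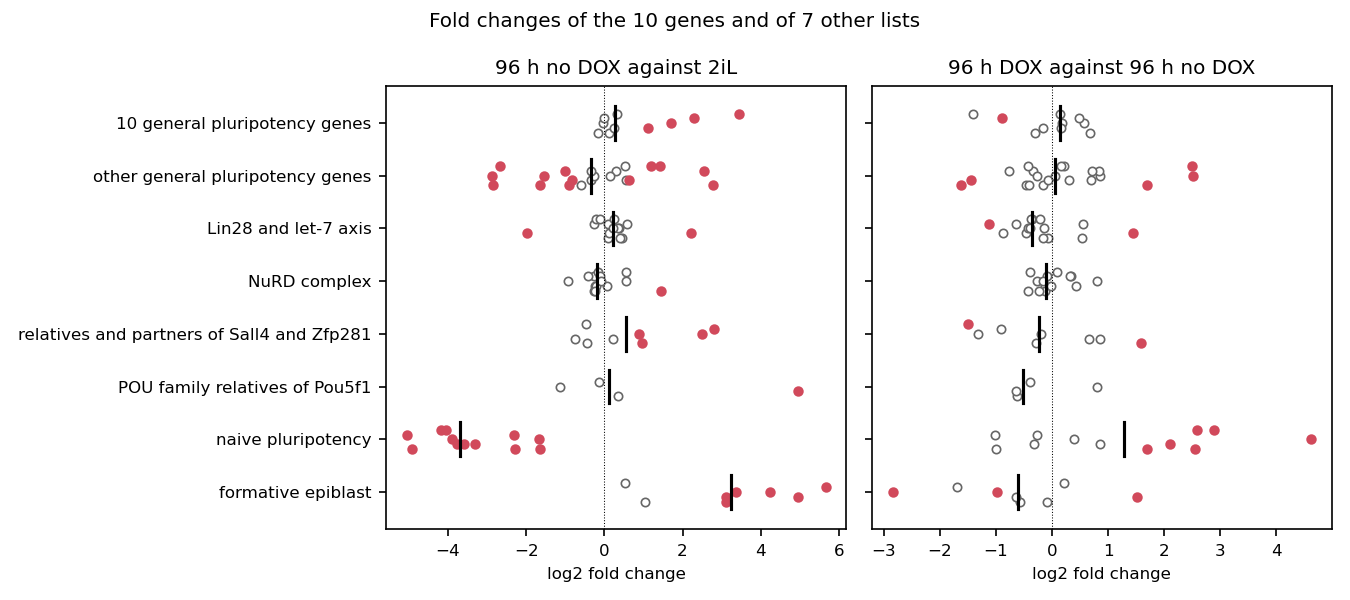
Log2 fold changes of the 10 genes and of the tested genes of 7 other lists (horizontal axis), for loss of 2iL at the left and DOX against no DOX at the right. Each point is a gene, filled red where its adjusted p is below 0.05, and the black bar is the median of the list. The medians on loss of 2iL are 0.28 for the 10 genes, -3.68 for the naive list and 3.25 for the formative list; the lists were chosen with earlier results of these data known.

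The 12 naive genes and 8 formative genes frame these values. On loss of 2iL, 12 of 12 naive genes fell (median -3.68) and 6 of 8 formative genes rose (median 3.25). When DOX was compared with no DOX, 6 naive genes rose and none fell (median 1.28), while 1 formative gene rose (Dnmt3a) and 2 fell (Sox3 and Dnmt3b). The median of the 10 general genes, 0.28, lay between those of the 2 lists in the first comparison. So did the median of all tested genes, 0.00, so this placement is not particular to the 10 genes. The Dnmt3b call is lost without 2iL exp2_1 or exp2_2, no-DOX exp1_1 or exp2_2, or DOX exp2_1 (adjusted p 0.0573 to 0.127), and the other formative and naive calls named here by gene hold in each of these. Markers of other cells were summed as CPM of library totals, without TMM. The 4 early neural markers summed to 42.4 to 55.8 CPM in 2iL, 305 to 408 without DOX and 148 to 216 with DOX. Most of the sum at 96 h was Sox11 (246 to 334 CPM without DOX, 103 to 185 with DOX). Nes was also lower with DOX (48.2 to 55.9 CPM without, 17.5 to 19.6 with). Sox1 (4.76 to 6.57 without, 4.33 to 8.77 with) and Pax6 (5.17 to 11.7 without, 4.09 to 16.6 with) overlapped between these groups. Of 7 primitive endoderm markers, the sums were 1.08 to 6.05 CPM in 2iL, 3.45 to 7.21 without DOX and 117 to 248 with DOX. Sox7 was at 0 outside the DOX group. The DOX libraries other than exp1_2 were at 117 and 118 CPM. The summed ES identity markers (6 genes, Pou5f1 and Sox2 among them) were 2749 to 4402, 3255 to 6245 and 1347 to 2662 CPM, or 2550 and 2662 CPM with DOX when exp1_2 is left out. Most of that sum is Cdh1, an adhesion protein (2118 to 3918, 2807 to 5896 and 787 to 2170 CPM). The other 5 summed to 484 to 652, 349 to 449 and 492 to 560 CPM; without DOX this sum was below that of every other library. The part of these cells in the levels of the 10 genes was not tested.

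Likeness between genes was measured as the root mean square difference of log2(CPM + 1), centred on each gene's mean, over the 10 libraries; a smaller value is more alike. Among 7702 genes, the nearest to Lin28a were Krt18 (0.22), a keratin of simple epithelia, and Armcx2 (0.22). Armcx2 went from 14.9 ± 2.84 CPM in 2iL to 87.7 ± 7.47 without DOX and 41.2 ± 6.81 with DOX. The nearest to Lin28b was Igdcc4 (0.34), a membrane protein of the immunoglobulin superfamily, which was 1.92 ± 0.842, 34.4 ± 7.46 and 10.7 ± 4.22 CPM in the same order. Utf1 was nearest to Car2 (0.22), a carbonic anhydrase, and Cemip2 (0.25), and Dppa4 to Strbp (0.11), which encodes an RNA-binding protein, and Mettl16 (0.15), an RNA methyltransferase. Car2 was 12.4 ± 2.57 CPM in 2iL, 39.5 ± 3.68 without DOX and 65.1 ± 5.32 with DOX; as for Utf1, its log2 fold change with DOX against no DOX did not pass (0.72, edgeR adjusted p = 0.192). Among the 10 themselves, the most alike were Sall4 with Zfp281 (0.29) and Sall4 with Dppa2 (0.29), 3 genes that did not pass in any comparison; Lin28a with Lin28b was 0.60 and Dppa2 with Dppa4 0.62. These values describe 10 libraries that share their groups and carry no test.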

How the data were processed

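Read counts per gene were deposited for 10 libraries of 3′ digital gene expression from polyA RNA, made by the authors with bcl2fastq, STAR 2.6.0a and HTSeq on mm10, per the submitters' processing notes. Which annotation release and strand setting were used is not given in the sources here. The deposited counts were taken without the HTSeq summary lines. These lines held 62.7% to 68.4% of the counted total, mostly entries with several alignments. Whether such a read was counted once or once per alignment is not given in the sources here. A deposited table of CPM holds the same counts divided by library totals and was not used. Symbols were attached by Ensembl ID (30934 of 31053), and positions came from GENCODE vM21.

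Genes were filtered with filterByExpr by group (minimum count 10) and scaled by TMM, with factors of 0.911 to 1.09. A robust quasi-likelihood model in edgeR 4.0.16 (R 4.3.3) covered all 10 libraries in 3 groups; Benjamini-Hochberg adjusted p below 0.05 over the 11215 tested genes was called. Standard errors come from the F statistic and intervals are 95%. The fit was tested on simulated data. Read ratios were compared by exact permutation tests.

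The members and lists were chosen with earlier results of these data known. All 10 members are named, with Sox2, Nanog and Esrrb, the called genes of each list with the largest change (at most 2 in each direction), and the 2 most alike genes of each called member (mean of at least 10 CPM). Some results under this rule are not reported here. The other lists were general pluripotency, let-7 pathway, NuRD, relatives of Sall4 and Zfp281, POU family, 2-cell stage, naive and formative genes. Same-numbered libraries did not deviate together, so the numbers were not used as pairs. Alternatives used other filters, scalings and tools (DESeq2 1.42.0, limma 3.58.1), subsets of libraries and replicate blocks.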

Additional observations from a re-analysis of the deposited data

How the results depend on the processing

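The rises of Lin28a, Lin28b, Utf1 and Dppa4 on loss of 2iL passed in all 21 alternatives, with log2 fold changes of 2.19 to 2.36, 2.96 to 3.87, 1.47 to 1.84 and 0.87 to 1.24. The 4 members called there were also 4 in each. DOX against 2iL gave 4 called members in each alternative except experiment 1 alone, where there were 2 (Lin28b 1.68, adjusted p = 0.120; Dppa4 1.11, adjusted p = 0.0662). For DOX against no DOX, called members numbered 2 with no filter beyond 1 read and 2 with DESeq2. They numbered 0 when only the compared groups were fitted, 0 with a replicate block of experiment plus number, and 0 in experiment 1 alone; leaving out 1 library gave 0 to 1. The number of called genes in that comparison, 348 as reported, was 564 with no filter, 563 with DESeq2, 212 with only the compared groups, 159 with that replicate block, 108 in experiment 1 alone and 161 to 358 without 1 library. The lowest were 161 without no-DOX exp1_1 and 181 without no-DOX exp2_2. In experiment 1 alone, 1226 genes were called on loss of 2iL and 926 for DOX against 2iL, against 2289 and 1870; without 1 library these were 1779 to 2718 and 1408 to 1916. The experiment alone as a replicate block left 1 member and 347 genes for DOX. Same-named libraries of different groups correlated in their deviations at -0.15 to 0.36, above 0.1 in 1 of 8 pairs. Scaling by library totals moved the median log2 fold change of DOX against 2iL from 0.02 to 0.17. Values of members that changed sign under an alternative passed the test in none, such as Zscan10 with DOX (-0.47 to 0.41 without 1 library). Lin28b had 6 to 23 reads in each 2iL library, so its level there is known with little precision.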
